A study of Drosophila melanogaster with 19 samples.

Results

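The 9 genes described here belong to the Notch pathway of Drosophila melanogaster. They are the receptor gene N, the ligand genes Dl and Ser, the glycosyltransferase gene fng, the ubiquitin ligase gene neur, the adaptor gene numb, the transcription factor gene Su(H), the corepressor gene H and the target gene Hey. They were chosen by name, as members of the pathway, with earlier results of these data known. Each has a row among the 17558 genes counted in every library. Dl is listed as Delta in the gene name table.

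Notch is a receptor on the cell surface that is cut when it binds Delta or Serrate, its ligands on a neighbouring cell. The freed inner part enters the nucleus and joins the DNA-binding protein Suppressor of Hairless, which otherwise holds target genes off together with Hairless. In the optic lobe, sister neurons of a division commonly differ in Notch activity, and Hey is known as a target switched on in the daughter with an active receptor, while Numb blocks the receptor in the other daughter.

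The libraries came from optic lobes, the brain's visual centres, of adult flies aged 3 to 6 days. For each of 17 single neuron types, a Gal4 driver line was crossed to UAS-Red Stinger, a red protein that marks nuclei, brains were dissected and dissociated, and labelled cells were sorted by fluorescence. The types were Tm2, Tm3, Tm5ab, Tm5c and Tm9, the T types T1, T2, T3 and T5, the Dm types Dm2, Dm8 and Dm12, the Lawf types Lawf1 and Lawf2, the C types C2 and C3, and Mi1. The 2 further groups were cells of a line that marks both Tm1 and T1, called the mixture here, and sorted neurons from an Elav line, the control. The 17 types shared the Red Stinger label, the series' design text names GFP for the mixture line, and the sex of the flies and the identity of the driver lines were not given in the sources used here. A group is therefore the cells that 1 driver line labels.

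Each group had 3 numbered libraries, 57 in all, of 0.602 M to 72.7 M reads in genes (M for mega), with a median of 21.8 M. Since GEO lists 1 sample per group, p-values here reflect how libraries of 1 sample vary, and that variation may be technical. Levels are reads per M after TMM scaling (CPM), as mean ± SD with n = 3 libraries, and fold changes are log2 values from edgeR's quasi-likelihood test with Benjamini-Hochberg adjustment over 12569 tested genes. A call needed an adjusted p under 0.05 and, except against sorted neurons, a log2 fold change of at least 1 in size. T2 stood apart, with libraries down to 0.602 M reads, scaling factors of 0.485 to 0.697 against at least 0.777 elsewhere, and a median log2 fold change of all genes of -1.26 against the other 16 types. T2 fold changes also followed exon length, from a running median of -1.95 at the shortest genes to 0.96 at the longest. The labels were checked on marker genes: bsh reached 649 ± 68.3 CPM in Mi1, eya 266 in Lawf1 and 271 in Lawf2, and Gad1 13280 in C3 and 3915 in C2, while brp, a gene of presynaptic active zones, stood at 18.04 CPM in T1 against 937 in sorted neurons. Eaat1, listed as a glia marker, stood at 32110 CPM in T1 and 3093 in the mixture. In such bulk libraries, fewer cells with a transcript and less transcript per cell cannot be told apart.

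Across the pathway, the ligands and fng had type medians below 0.2 CPM and no read in 2 to 4 types, N was low but read in all 17 types, whereas Su(H), H and numb were read in every library and Hey ranged over 385-fold between type means. Per kilobase of exon, the median of the 17 type means was 18.1 CPM for Hey, 13.9 for H, 9.24 for Su(H), 6.28 for numb and 2.07 for neur. On the same scale it was 0.211 CPM for N, 0.0463 for fng, 0.0362 for Dl and 0.0307 for Ser. All 9 genes passed the filter on low counts and all 9 varied among the 17 types, beside 91.6 percent of all genes tested, so that count says nothing particular about them. Over the 153 comparisons of 1 gene in 1 type with the other 16 types, 34 were called higher and 17 lower. Of all such comparisons, 15.5 percent were called higher and 6.24 percent lower with edgeR (21.7 percent in either direction). With DESeq2 the members' counts were 29 higher and 23 lower. Besides the 6 fng calls, which it did not make, DESeq2 differed in calling neur higher in T2 (adjusted p = 0.00901), Dl lower in Lawf2 (0.00413), Ser lower in T3 (0.0243), T5 (0.0160) and Tm2 (0.0332), N lower in Tm2 (0.0426) and numb lower in Dm8 (0.00242). The calls by gene and type below are those of edgeR. Over all genes DESeq2 made 22543 higher and 18531 lower calls, against 33113 higher and 13328 lower with edgeR.

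**Figure D1:**
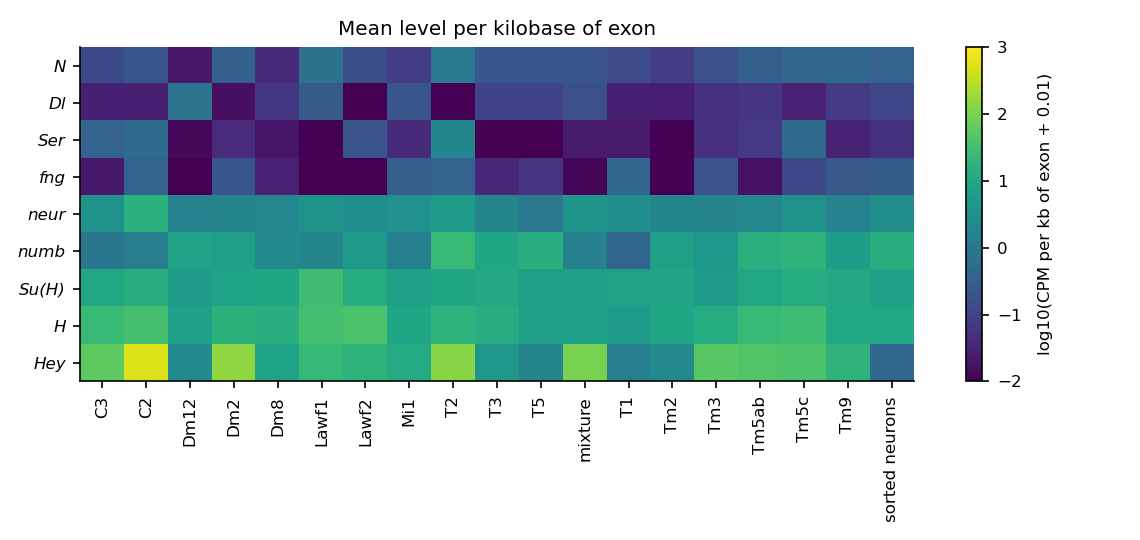
Mean level of the 9 genes in the 19 groups, as log10 of CPM per kilobase of exon plus 0.01 (n = 3 libraries a group). Rows run from the receptor to the target gene. N, Dl, Ser and fng stay dark in most groups, and the Hey row runs from its brightest cell in C2 to its darkest in sorted neurons.

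Counted by type, the genes called with edgeR are given beside the share of all genes called. That share itself differed by type, from 8.89 to 29.5 percent higher and from 1.86 to 29.4 percent lower. Several calls did not hold in every refit, as given by gene below, among them N, Ser and fng in T2 and Dl in Lawf1. C2 had 5 higher (Ser, Hey, fng, neur and H) beside 23.7 percent of all genes, and 1 lower (numb) beside 6.21 percent. T2 also had 5 higher (N, Ser, Hey, fng and numb) beside 21.5 percent, and 0 lower beside 29.4 percent. Tm5c had 4 higher (N, Ser, Hey and numb) beside 21.2 percent, and 0 lower beside 3.55 percent. Lawf1 had 4 higher (N, Dl, Su(H) and H) beside 29.5 percent, and 1 lower (numb) beside 7.94 percent.

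Lower calls outnumbered higher ones in 6 types. Dm12 had 3 lower (N, Hey and H) beside 5.22 percent and Dl higher beside 10.6 percent, T1 had 3 lower (Hey, H and numb) beside 10.4 percent and fng higher beside 13.7 percent, and T5 had 3 lower (Hey, neur and H) beside 7.82 percent and numb higher beside 16 percent. Dm8 had N and Hey lower beside 3.44 percent and 0 higher beside 11.8 percent. With edgeR, Hey was the 1 gene called in T3, lower beside 3.81 percent with 0 higher beside 10.3 percent, and in Tm2, lower beside 4.98 percent with 0 higher beside 8.89 percent.

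In the other 7 types, C3 had Ser and Hey higher beside 18.2 percent and numb lower beside 4.81 percent, and Mi1 had Dl and fng higher beside 10.4 percent and numb lower beside 3.81 percent. The remaining 5 had higher calls and 0 lower. These were Dm2 with Hey and fng (11.3 percent of all genes higher, 2.94 percent lower), Lawf2 with Ser and H (20.3 and 4.73 percent), Tm3 with Hey (11.1 and 2.16 percent), Tm5ab with Hey and numb (14.7 and 1.86 percent) and Tm9 with N and fng (9.96 and 2.93 percent).

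N encodes the receptor (FBgn0004647, BDGP6 chromosome X, 3134870 to 3172221, 10150 exon bases in 9 merged exons). It was low throughout, with a median of 2.14 CPM over the types and 3.69 ± 1.66 in sorted neurons. T2 had the highest mean, with 3.72, 13.0 and 14.3 CPM, but these rest on 17, 18 and 6 reads, and the mean of 10.3 CPM was 6.29 without TMM scaling. Lawf1 followed with 4.93, 12.5 and 4.58 CPM, and Dm12 was lowest with 0, 0.175 and 0.177. The T2 and Lawf1 libraries overlapped, and so did each of the 16 pairs of neighbours in the order of the levels. The Lawf1 and Dm12 libraries did not overlap.

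N was called higher in Lawf1 (log2 fold change 2.18, SE 0.46, adjusted p = 8.68e-05 with edgeR), T2, Tm5c and Tm9, and lower in Dm12 and Dm8. The T2 call (2.61, SE 0.55, adjusted p = 5.37e-05 with edgeR) was lost when the trend on exon length was taken out (0.40, adjusted p = 0.696). The Dm8 call was lost without Dm8 library 3 (adjusted p = 0.0595), the Tm5c call without Tm5c library 3 (0.169), and the Tm9 call without Tm9 library 1 (0.154) or 3 (0.102). Dm12, with 8 reads of N in its 3 libraries together, was also the type with the most Dl. Lawf1, however, ranked next to the top for both genes, for Dl mainly through library 2. Over the 17 type means of log2(CPM + 1), N and Dl had Pearson r = -0.33 (-0.27 without T2).

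Dl encodes Delta, a ligand (FBgn0000463, chromosome 3R, 19302731 to 19326217, 5278 exon bases). It stood at 4.95, 4.37 and 3.41 CPM in the Dm12 libraries. Every Dm12 library lay above every library of 15 of the other types, and Lawf1 library 2, at 3.63 CPM, lay within the Dm12 range. The other Lawf1 libraries had 0 and 0.282 CPM. Mi1 followed with 2.14, 0.130 and 0.945 CPM, all other type means were below 0.5, and sorted neurons had 0.563 ± 0.312. No read of Dl was found in Lawf2 or T2, which allows up to 0.0413 CPM in Lawf2 and 0.470 in T2 (3 counts over a group, counting error only).

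Dl was called higher in Dm12 (adjusted p = 1.14e-07 with edgeR), Lawf1 and Mi1. With edgeR it was called lower in no type, and DESeq2 called it lower in Lawf2 (adjusted p = 0.00413), where it had no read. The Lawf1 call turned to a log2 fold change of -0.04 without Lawf1 library 2, and the Mi1 call was lost without Mi1 library 1 (1.86, adjusted p = 0.182). In types without reads a fitted fold depends on the added prior count. For the ligands and fng, levels are therefore given first, and the fitted folds printed below carry that limit.

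Ser encodes Serrate, the other ligand (FBgn0004197, chromosome 3R, 27172090 to 27194267, 5831 exon bases). It had 3.61, 1.92 and 3.92 CPM in C2, 3.09, 2.56 and 0.574 in C3, and 2.95, 0.547 and 5.88 in Tm5c. Its highest mean, 11.4 ± 19.01 in T2, came from 1 library at 33.4 CPM, which is 14 reads, beside 0.874 and 0 in the other two. Lawf1, T3, T5 and Tm2 had no read, and sorted neurons had 0.259 ± 0.268. The C2 and C3 libraries overlapped each other and those of Tm5c.

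Ser was called higher in C2 (adjusted p = 3.89e-06), C3 (7.91e-05), Tm5c (6.84e-06), Lawf2 and T2 (2.55e-07), each with edgeR. The T2 call was lost without T2 library 3 (adjusted p = 0.109) and the Lawf2 call without Lawf2 library 1 (0.240). In the 17 types, Dl and Ser were thus led by different types: Dm12, highest for Dl, had 1 read of Ser in all, and C2 and C3 had means of 0.0953 and 0.0947 CPM of Dl.

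fng encodes Fringe, which adds a sugar to the receptor and changes which ligand it answers to (FBgn0011591, chromosome 3L, 20925891 to 20949512, 1959 exon bases). No type mean exceeded 0.865 CPM, and Dm12, Lawf1, Lawf2 and Tm2 had no read. C2 had 0.922, 0.903 and 0.443 CPM, beside 0.555 ± 0.211 in sorted neurons, and was, with Mi1, a type with reads in every library. T1 had 1.46, 0 and 1.13 CPM. The 6 types called higher with edgeR were C2, Dm2, Mi1, T1, T2 and Tm9, and DESeq2 called none of these 6, with adjusted p from 0.113 in T1 to 0.4075 in Dm2. Without 1 library the fitted change turned negative in Dm2 (-0.48 without library 1), T2 (-3.73 without library 1) and Tm9 (-1.60 without library 3). At such levels the order of the types for fng was not resolved.

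**Figure D2:**
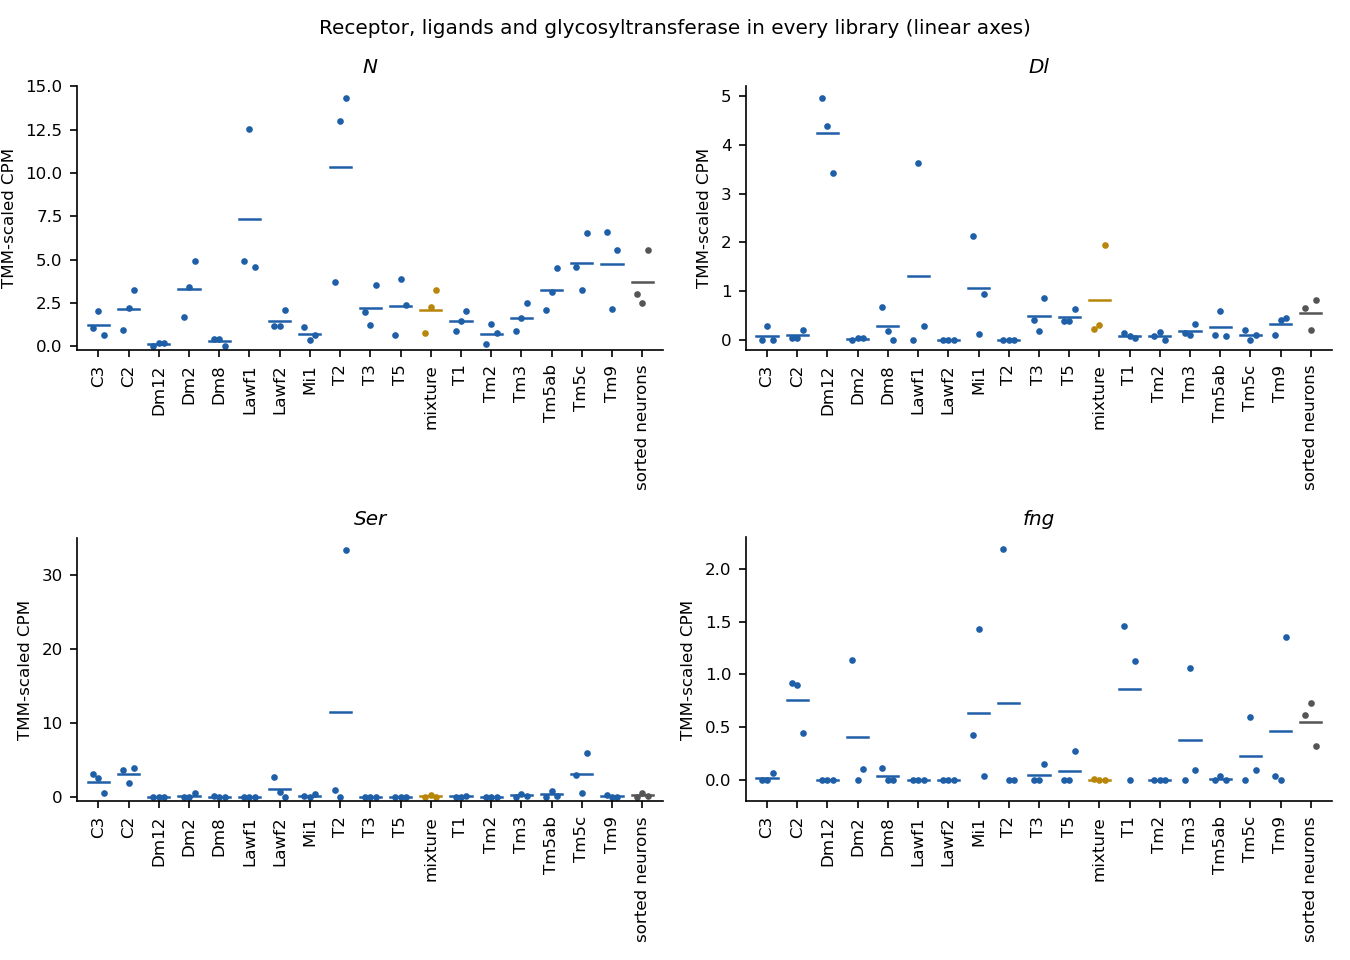
Level of N, Dl, Ser and fng in each of the 57 libraries (TMM-scaled CPM, linear axes, points are libraries, lines are means of 3). Dl is high in all 3 Dm12 libraries, whereas the Ser mean of T2 rests on 1 library at 33.4 CPM.

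neur encodes Neuralized, a ubiquitin ligase that drives ligand uptake in the sending cell (FBgn0002932, chromosome 3R, 9020348 to 9039471, 4309 exon bases). It stood at 64.5, 62.5 and 74.0 CPM in C2. T2 followed with 3.28, 21.6 and 50.03 CPM, the other types had means of 4.15 to 15.6, and sorted neurons had 12.6 ± 2.43. Every C2 library lay above every other library of the 17 types. T5 had the lowest mean, with 3.93, 5.22 and 3.31 CPM, and Dm8 library 3, at 1.475, and T2 library 1, at 3.278, lay below all of these.

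neur was higher in C2 (log2 fold change 2.75, SE 0.30, adjusted p = 1.06e-10 with edgeR) and lower in T5 (-1.51, SE 0.46, adjusted p = 0.00678). The T5 call was lost without T5 library 3 (adjusted p = 0.0544). Of the exon bases of neur, 38.8 percent lie in exons of asRNA:CR31429 on the other strand. The library kit does not mark strand, so reads there cannot be assigned to 1 of these genes.

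C2 also held the highest summed level of 7 glia markers without Eaat1, 344 ± 73.3 CPM, against 40.2 in Mi1, the lowest type, and 154 ± 20.3 in sorted neurons. Of that sum, nrv2 made up 228.5 CPM against 67.8 in sorted neurons, and Gs2 made up 69.2 against 58.2. Also above sorted neurons were moody (18.8 against 1.77 CPM), Gat (17.0 against 10.2) and wrapper (1.93 against 0.247). Below them lay repo, the defining nuclear factor of glia (2.51 against 3.10 CPM), alrm (5.91 against 12.9) and Eaat1, outside the sum (7.81 against 407). Of all 8 glia markers, 5 had means above those of sorted neurons in C2, against 6 in T1, 5 each in C3 and T5 and at most 3 in the other types, and none was at 0 in C2. Of 5 hemocyte markers, 3 had means above those of sorted neurons in C2, Sr-CI at 53.7 CPM against 0.326, Hml at 1.46 against 0.315 and srp at 0.684 against 0.0119, and 2 did not, Pxn at 106 against 119 and NimC1 at 0.0140 against 0.0909. Their sum was 162 ± 21.5 CPM in C2 and 119.5 ± 4.66 in sorted neurons, and ranged over the types from 14.5 in T3 to 645 in Mi1. The part of these markers in the C2 levels of neur and Hey was not tested.

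numb encodes an adaptor that blocks Notch signalling in the cell that inherits it (FBgn0002973, chromosome 2L, 9437469 to 9464184, 4916 exon bases). It was high in T2 (127, 161 and 73.9 CPM), Tm5c (111, 82.4 and 71.9), Tm5ab (62.5, 77.3 and 84.7) and T5 (64.7, 83.1 and 59.6). It was low in T1 (2.10, 2.22 and 1.61 CPM), C3 (6.88, 3.33 and 3.05), C2 (4.65, 8.25 and 6.68) and Mi1 (4.42, 6.78 and 9.45). The 4 high types and the 4 low types did not overlap, and the step between T5 and T3, next at 42.5 ± 8.43, was free of overlap. T1 lay below every other type except for Dm8 library 2, which fell within the T1 range at 2.205 CPM.

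numb rose in T2 (log2 fold change 2.63, SE 0.23, adjusted p = 4.79e-14), Tm5c (2.12, SE 0.22), Tm5ab (1.86, SE 0.23) and T5 (1.74, SE 0.23), with edgeR. It fell in T1 (-3.71, SE 0.40, adjusted p = 4.54e-11), C3 (-2.48, SE 0.35), C2 (-1.88, SE 0.34), Mi1 (-1.76, SE 0.34) and Lawf1 (-1.31, SE 0.32). These 9 calls held without each library in turn. Without TMM scaling, T2 stood at 67.2 CPM and Tm5c, at 95.1, was the highest type. With the exon length trend taken out, the T2 change was 1.07 (adjusted p = 0.000419).

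Su(H) encodes the DNA-binding protein of the pathway (FBgn0004837, chromosome 2L, 15039488 to 15043334, 2950 exon bases). Among the 5 genes with a type median above 5 CPM it had the narrowest range, with 16 type means from 16.5 ± 8.14 CPM in Tm3 to 42.9 ± 11.8 in C2, and 21.6 ± 2.35 in sorted neurons. Lawf1 stood apart with 95.2, 95.3 and 73.5 CPM. Its lowest library lay above the highest library of every other type. Su(H) was higher in Lawf1 (log2 fold change 1.74, SE 0.17, adjusted p = 2.33e-12 with edgeR) and called in no other type by edgeR or DESeq2. The Lawf1 mean without TMM scaling was 71.0 CPM, still the highest.

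H encodes Hairless, which binds Su(H) and recruits corepressors to target genes (FBgn0001169, chromosome 3R, 20621938 to 20628915, 6004 exon bases). Its levels formed a graded series, led by Lawf2 (211, 192 and 280 CPM), Lawf1 (210, 232 and 175) and C2 (209, 180 and 206). These 3 types overlapped. Tm5c (172 ± 16.3 CPM) overlapped C2 and lay apart from Tm5ab, Tm5ab and C3 came next with means of 147 and 138, and a gap separated C3 from T2 at 101 ± 4.71. T1 was lowest with 48.4, 29.2 and 24.6 CPM, overlapping T5 and Dm12.

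H rose in Lawf2 (log2 fold change 1.42, SE 0.15, adjusted p = 2.45e-11), Lawf1 (1.26, SE 0.15) and C2 (1.21, SE 0.15) and fell in T1 (-1.49, SE 0.20, adjusted p = 1.17e-08), T5 (-1.19, SE 0.19) and Dm12 (-1.14, SE 0.19), with edgeR. Without Dm12 library 1 the Dm12 change was -0.98, just under the size needed for a call. Over the 17 type means of log2(CPM + 1), H went with Su(H) at Pearson r = 0.735 (0.738 without T2) and with Hey at 0.70 (0.72). Other pairs were lower, with Hey and numb at 0.04 (-0.09) and Hey and N at 0.48 (0.40). Such correlations are descriptions over types whose genes share the same libraries.

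**Figure D3:**
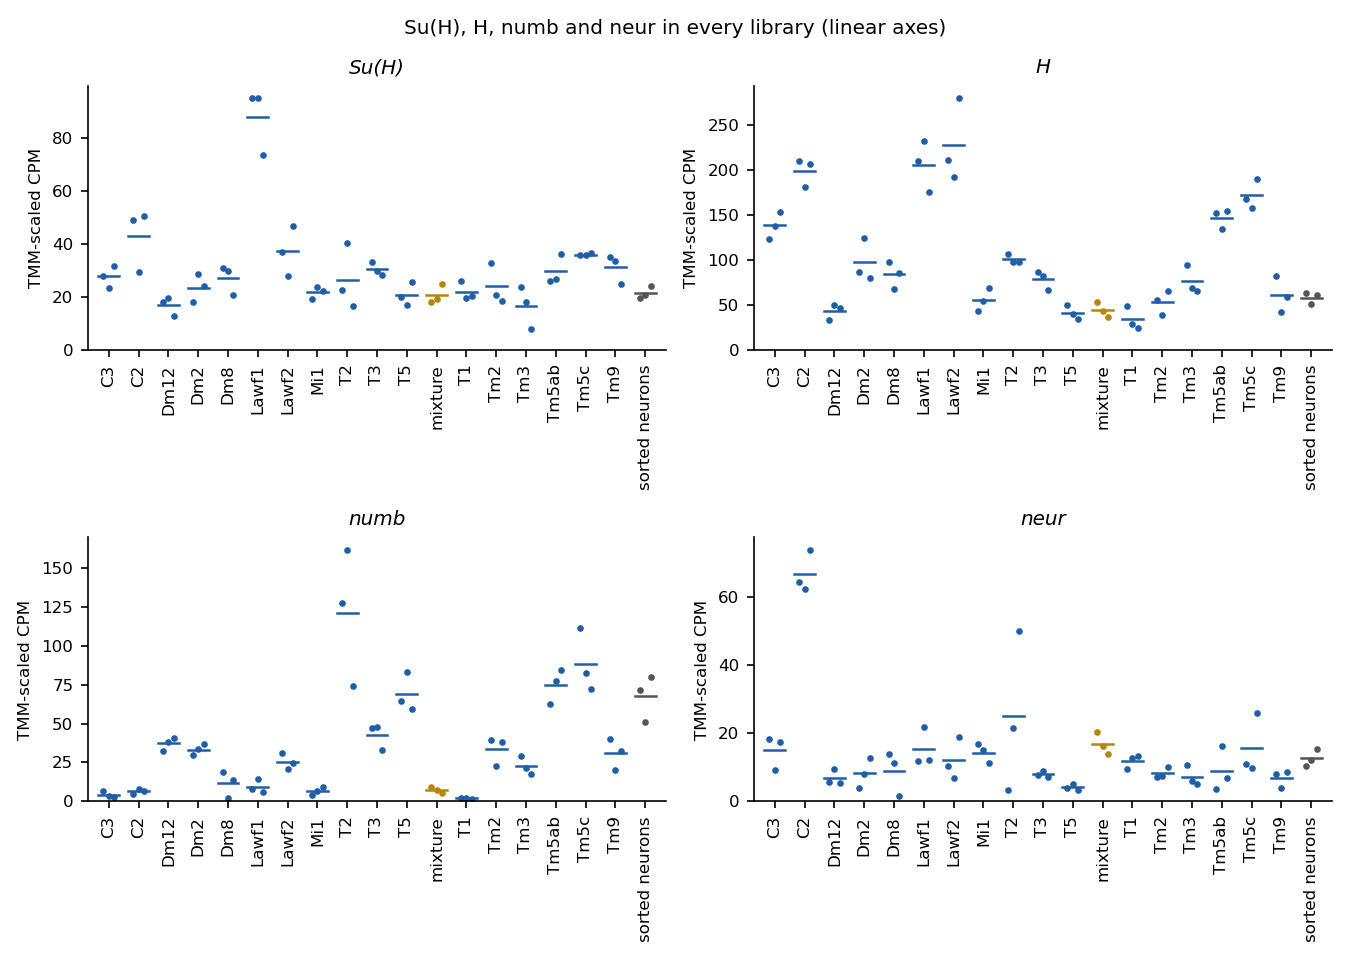
Level of Su(H), H, numb and neur in each of the 57 libraries (TMM-scaled CPM, linear axes, points are libraries, lines are means of 3). Lawf1 stands apart for Su(H), C2 for neur, and T1, C2, C3 and Mi1 lie near the bottom for numb.

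Hey encodes a basic helix-loop-helix repressor that Notch switches on in newborn neurons (FBgn0027788, chromosome 2R, 7995438 to 7998278, 1687 exon bases). C2 had 969, 836 and 938 CPM, Dm2 had 285, 211 and 244, and T2 had 342, 110 and 188. Every C2 library lay above every other library of the 19 groups, while Dm2 and T2 overlapped. C3, Tm3, Tm5ab and Tm5c followed with means of 97.3 ± 20.4, 87.0 ± 21.7, 72.9 ± 4.50 and 65.6 ± 25.6 CPM, each overlapping its neighbour.

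A step free of overlap led to Lawf1, at 37.8 ± 10.3 CPM, after which Tm9 (30.6), Lawf2 (28.3), Mi1 (19.5), Dm8 (13.4) and T3 (7.38) declined with overlap between neighbours. At the low end stood Dm12 (2.28, 4.94 and 4.61 CPM), Tm2 (4.21, 4.995 and 2.12), T5 (4.20, 2.07 and 2.81) and T1 (0.683, 4.09 and 2.35). These 4 types overlapped each other, and none overlapped T3. Of the 17 types, 12 had means of at least 10 CPM and 3 of at least 100.

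Hey was called higher in 7 types and lower in 6, more of the 17 types than any of the other 8 genes. It rose most in C2 (log2 fold change 5.23, SE 0.20, adjusted p = 6.28e-25 with edgeR), Dm2 (3.23, SE 0.24, adjusted p = 2.98e-15) and T2 (3.02, SE 0.26), and also in C3, Tm3, Tm5ab and Tm5c. The Tm5c call was lost without Tm5c library 3 (0.80, adjusted p = 0.102). It fell most in T1 (-3.88, SE 0.47, adjusted p = 2.99e-09), T5 (-3.52, SE 0.46), Tm2 (-3.19, SE 0.45) and Dm12 (-3.12, SE 0.44), and also in T3 and Dm8. The Dm8 call was lost without Dm8 library 1 (adjusted p = 0.0543) or 2 (0.135). For T2, taking out the exon length trend gave 3.52, in the same direction.

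**Figure D4:**
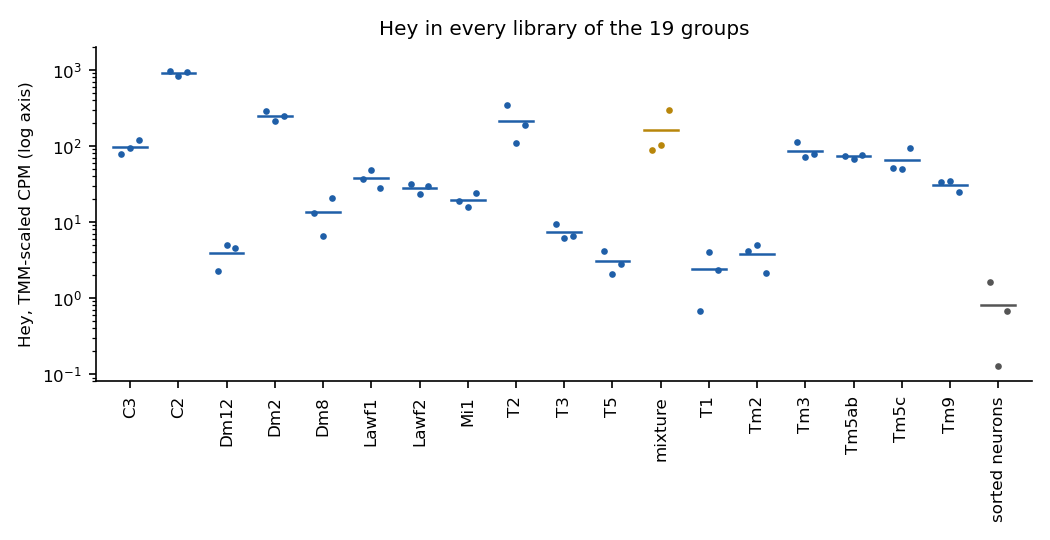
Level of Hey in each of the 57 libraries (TMM-scaled CPM, log axis, points are libraries, lines are means of 3). C2 is highest at 914 CPM, the types spread over 385-fold, and the sorted neurons at the right lie lowest, at 0.815 CPM on average.

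The mean of the 17 types was next set against sorted neurons, a group of many neuron kinds. Hey and H were higher in the types and numb and fng lower, which makes 2 of 9 genes called higher and 2 lower, beside 6.09 percent of all genes higher and 16.5 percent lower (22.5 percent in either direction). DESeq2 called 1049 genes higher and 1373 lower in this comparison, against 765 higher and 2068 lower with edgeR. The median log2 fold change of all genes was -0.15.

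The largest of these differences was that of Hey. The lowest type, T1, had 0.683, 4.09 and 2.35 CPM, and the sorted neuron libraries had 1.64, 0.129 and 0.675. All 17 type means lay above the mean of sorted neurons, and in 16 of them, all but T1, every library lay above every sorted neuron library. The log2 fold change was 5.19 (SE 0.53, adjusted p = 1.03e-10 with edgeR) and ranged from 4.61 to 6.07 without each library in turn.

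Summed Hsp70 transcripts, 6 heat-shock genes looked at after their values were seen, moved in the same direction, with a median of 110 CPM over the types against 29.8 ± 13.0 in sorted neurons. They ranged from 16.3 ± 5.41 CPM in T5 to 286 ± 91.7 in Tm5c. T5, lowest for the Hsp70 sum, also had the next to lowest Hey mean, 3.03 ± 1.08 CPM against 0.815 ± 0.766 in sorted neurons. Its Hsp70 libraries overlapped those of sorted neurons (up to 20.9 CPM in T5, down to 20.3 in sorted neurons), and its Hey libraries did not. Over the 17 types the Hsp70 sum went with Hey at r = 0.63, with H at 0.61 and with neur at 0.61, and its part in these levels was not tested.

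H had type means from 34.1 ± 12.6 CPM in T1 to 228 ± 46.3 in Lawf2, against 62.7, 50.5 and 60.5 in the sorted neuron libraries, and 12 of the 17 means lay above their mean. The log2 fold change was 0.64 (SE 0.18, adjusted p = 0.00652 with edgeR), and the call was lost without sorted neuron library 2 (adjusted p = 0.132) or 3 (0.0585). numb had a median of 30.9 CPM over the type means, against 71.7, 50.9 and 80.03 in the sorted neuron libraries, and in 13 of 17 types every library lay below all of these. Its log2 fold change was -1.60 (SE 0.23, adjusted p = 3.69e-07 with edgeR). The higher means in T2, Tm5c, Tm5ab and T5 overlapped the sorted neurons.

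The fng mean lay below the 0.555 ± 0.211 CPM of sorted neurons in 13 of the 17 types, and in 9 of them every library did. That call was lost in DESeq2 (adjusted p = 0.365) and without sorted neuron library 1 (0.0683) or 2 (0.0909). N, Dl, Ser, neur and Su(H) were not called, with log2 fold changes of -1.06 (SE 0.51), -1.75 (SE 0.81), -0.83 (SE 0.61), -0.18 (SE 0.39) and 0.39 (SE 0.21). For Ser, the mean of the type means, 1.30 CPM, lay above the 0.259 CPM of sorted neurons although the fitted change was negative. The fit averages logarithms, and 4 types had no read of Ser. The same averaging applies to Dl, at 0.538 against 0.563 CPM with no read in 2 types. It also applies to fng, at 0.276 against 0.555 CPM (log2 fold change -2.67, SE 0.90) with no read in 4 types.

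**Figure D5:**
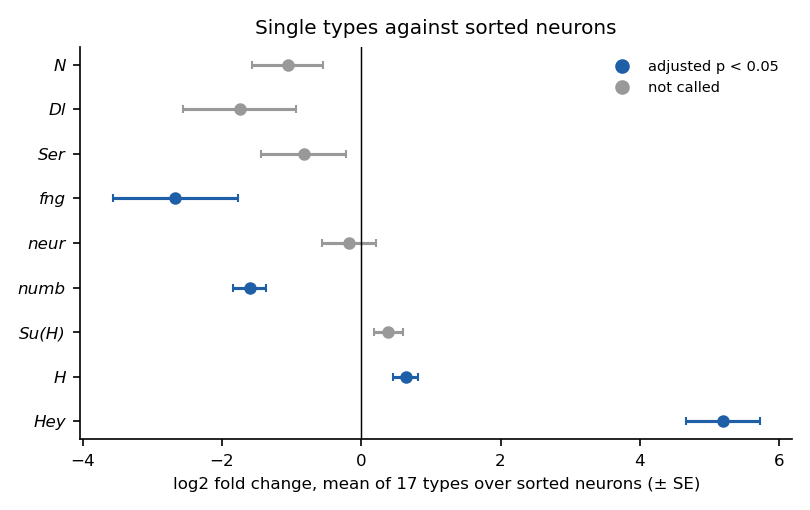
Log2 fold change of each gene, mean of the 17 types over sorted neurons, with SE as bars (edgeR). Hey lies farthest to the right at 5.19, and numb and fng are the genes called lower, fng with no read in 4 types.

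The mixture of T1 and Tm1 cells was compared with T1 cells alone. Hey and numb were higher in the mixture, 2 of 9 genes, beside 18.7 percent of all genes called, 13.2 percent higher and 5.55 percent lower. Hey stood at 88.0, 103 and 300.3 CPM in the mixture against 0.683, 4.09 and 2.35 in T1, without overlap (log2 fold change 6.09, SE 0.57, adjusted p = 6.89e-12 with edgeR). numb stood at 8.94, 7.56 and 5.33 CPM in the mixture against 2.10, 2.22 and 1.61 in T1, also without overlap (1.91, SE 0.42, adjusted p = 0.000454). Of the other genes, H had 44.2 ± 8.66 CPM in the mixture and 34.1 ± 12.6 in T1, and Su(H) had 20.7 ± 3.68 and 22.1 ± 3.52, with overlapping libraries. The mixture libraries also held bsh at 123 CPM against 1.08 in T1, and Eaat1 at 3093 against 32110. Gad1, the gene used above to check C2 and C3, stood at 464 ± 209 CPM in the mixture against 25.15 ± 16.2 in T1. The part of cells other than T1 and Tm1 in the Hey level of the mixture was not tested. Their share of T1 cells was not measured here.

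Types that share a name stem were compared in 4 pairs. In C3 against C2, 2 of 9 genes were called, both lower in C3, beside 7.88 percent of all genes, 3.77 percent higher and 4.11 percent lower. Over the 4 pairs together 11 of 36 calls were made, beside 22.9 percent. Hey had 78.0, 95.2 and 119 CPM in C3 against 969, 836 and 938 in C2 (log2 fold change -3.23, SE 0.48, adjusted p = 1.70e-06 with edgeR). neur had 18.3, 9.18 and 17.5 CPM in C3 against 64.5, 62.5 and 74.0 in C2 (-2.16, SE 0.56, adjusted p = 0.00594), a call lost without C3 library 2 (0.0579). Both genes were free of overlap. All 9 fitted changes were negative, and the median over all genes was -0.01. The genes besides Hey and neur were not called. They were Su(H) at -0.63 (SE 0.28), H at -0.52 (SE 0.23), numb at -0.57 (SE 0.40) and N at -0.79 (SE 0.80). Ser was at -0.60 (SE 1.58), Dl at -0.03 (SE 1.40) and fng at -4.63 (SE 2.16).

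In Lawf1 against Lawf2, 5 of 9 genes were called, 3 higher and 2 lower, beside 25.8 percent of all genes, 15.9 percent higher and 9.9 percent lower. Su(H) was higher in Lawf1, with 95.2, 95.3 and 73.5 CPM against 36.9, 27.9 and 46.9 in Lawf2 (log2 fold change 1.24, SE 0.28, adjusted p = 0.000463 with edgeR). numb was lower, with 8.26, 14.2 and 5.99 CPM in Lawf1 against 30.8, 20.5 and 24.8 in Lawf2 (-1.42, SE 0.40, adjusted p = 0.00383). Neither gene overlapped between these types.

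N was called higher in Lawf1 with 4.93, 12.5 and 4.58 CPM, against 1.19, 1.18 and 2.11 in Lawf2, a call lost without Lawf1 library 2 (adjusted p = 0.148 with edgeR) or Lawf2 library 1 (0.0851) or 2 (0.0860). Dl, with 0, 3.63 and 0.282 CPM in Lawf1, had no read in Lawf2, and its call was lost without Lawf1 library 2 (0.0556). Ser had no read in Lawf1 and 2.66, 0.650 and 0 CPM in Lawf2, and its call was lost without Lawf2 library 1 (0.0817) or without any 1 of the Lawf1 libraries (0.0556 to 0.0587). H and Hey, at 206 ± 28.5 and 37.8 ± 10.3 CPM in Lawf1 and 228 ± 46.3 and 28.3 ± 4.47 in Lawf2, were not called.

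In Tm5ab against Tm5c, edgeR called 0 of 9 genes, beside 10.1 percent of all genes (4.51 percent higher and 5.63 percent lower), with no unadjusted p under 0.05, and DESeq2 called 0. Hey had 72.9 ± 4.50 CPM in Tm5ab and 65.6 ± 25.6 in Tm5c, and numb 74.8 ± 11.3 and 88.5 ± 20.3. The changes were 0.15 (SE 0.45) and -0.24 (SE 0.38).

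In T2 against T3, Hey, numb, N and Ser were called higher, 4 of 9 genes, beside 47.8 percent of all genes, 17.8 percent higher and 29.9 percent lower. The median change of all genes was -0.63. Hey had 342, 110 and 188 CPM in T2 against 9.37, 6.22 and 6.543 in T3, free of overlap (log2 fold change 4.87, SE 0.53, adjusted p = 9.66e-11 with edgeR). numb had 127, 161 and 73.9 CPM in T2 against 46.9, 47.8 and 32.8 in T3 (1.54, SE 0.40, adjusted p = 0.000849). With the exon length trend taken out, the change was 5.36 for Hey, -0.02 for numb and -0.10 for N. N was also no longer called without T2 library 2 or 3 or T3 library 1 or 2 (adjusted p of 0.101 to 0.149). Ser, with 0.874, 0 and 33.4 CPM in T2, had no read in T3. DESeq2 also called neur higher in T2 (adjusted p = 0.00838).

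Other genes of the pathway were read in 8 lists, chosen like the members with earlier results of these data known. Their T2 values carry the depth and exon length limits given above, and are printed without the length trend taken out. The canonical targets, the E(spl) genes of the helix-loop-helix kind and of the Bearded family, were close to 0. Of 7 E(spl) helix-loop-helix genes, 2 passed the filter on low counts, and the highest type mean was 2.19 ± 2.08 CPM, of E(spl)mgamma-HLH in Lawf1. Of 8 Bearded family genes, none passed it and none reached 1 CPM in any type. All 15 summed to between 0 CPM in Dm12 and 2.26 ± 2.20 in Lawf1, with 0.543 ± 0.286 in sorted neurons. C2, with Hey at 914 CPM, had a sum of 0.697 ± 0.869. Of other Hairy-related repressor genes, h and dpn stayed at or below 0.509 CPM in every type. cwo, also known from the circadian clock, reached 203 ± 63.8 CPM in T2 and 14.0 ± 5.37 in T1, its lowest type.

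The genes that process the receptor were read throughout. All 7 tested genes of that list varied among types. Since 91.6 percent of all genes tested did so, counts of varied genes in these lists say nothing particular about them. kuz, the protease of the first ligand-dependent cut, was highest in Lawf1 at 403 ± 34.0 CPM and lowest in C2 at 34.0 ± 2.29. Fur1, a furin protease, ranged from 1543 ± 56.2 CPM in T1 to 9.05 ± 2.60 in Tm9. Tace, a protease related to kuz, ranged from 369 ± 31.2 in Dm12 to 26.8 ± 7.16 in T2. pen-2, a subunit of the gamma-secretase that makes the last cut, ranged from 372 ± 113 in T2 to 31.8 ± 2.97 in Dm12. However, 47.8 percent of the exon bases of pen-2 lie in exons of sbb on the other strand. As for neur, the library kit does not mark strand, so reads there cannot be assigned to either gene. The pen-2 calls given below carry the same limit.

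Of the 5 ligand uptake genes, all varied, beside 91.6 percent of all genes tested. mib1, a ligase for ligands like neur, ranged from 74.7 ± 9.89 CPM in Dm12 to 2.51 ± 2.18 in T2, and lqf, the epsin of that route, from 315 ± 58.2 in Lawf1 to 49.6 ± 6.19 in C3. aux, the auxilin, ranged from 363 ± 19.8 CPM in Lawf2 to 65.7 ± 8.08 in T5. shi, the dynamin, ranged from 4333 ± 723 in Dm12 to 962 ± 18.7 in T5. All 4 genes listed for sugars on the receptor, apart from fng, varied, beside 91.6 percent of all genes tested. Whether O-fut2 acts on the receptor was not examined here. O-fut1 was highest in Lawf1 at 22.4 ± 4.20 CPM, shams in T1 at 31.9 ± 5.58, O-fut2 in Lawf1 at 17.9 ± 5.33 and rumi in T1 at 3.88 ± 1.64.

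In the nuclear complex list, all 5 genes varied, beside 91.6 percent of all genes tested. The T2 levels in this list carry the depth and exon length limits of that group. mam, the coactivator of the receptor and Su(H), ranged from 686 ± 287 CPM in T2 to 2.83 ± 1.17 in Dm12. nej, the CBP acetyltransferase, ranged from 1529 ± 162 in T2 to 221 ± 28.8 in T1, insv from 29.0 ± 1.005 in C2 to 3.50 ± 2.30 in T1, and CtBP, a corepressor that H recruits, from 467 ± 185 in T2 to 198 ± 7.34 in C2. gro, the other corepressor that H recruits, was highest in Lawf1 at 342 ± 15.8. Of the 9 receptor trafficking genes, 8 varied, beside the same 91.6 percent, and spdo did not pass (adjusted p = 0.923 with edgeR). Nedd4, a ligase acting on the receptor, was highest in Lawf1 at 595 ± 50.1, krz in T2 at 139 ± 22.7, AP-2alpha in T2 at 496 ± 213 and Su(dx) in C2 at 406 ± 81.0 CPM.

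Against sorted neurons, 35 tested genes of these lists gave 9 higher in the types and 3 lower, 34.3 percent called beside 22.5 percent of all genes. The 9 were pen-2 (log2 fold change 0.84), Fur2 (0.94), aux (0.63), mam (0.67), gro (0.51), nej (1.28), Su(dx) (0.87), Nedd4 (0.45) and cwo (0.54). The 3 were Fur1 (-0.71), O-fut2 (-1.38) and E(spl)mdelta-HLH, whose means were 0.101 CPM over the types and 0.202 in sorted neurons. The 3 genes called in the nuclear complex list, a coactivator, a corepressor and an acetyltransferase, were higher, as H was, at adjusted p of 0.0145 for mam, 0.000505 for gro and 4.93e-09 for nej with edgeR.

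In the mixture against T1, 8.57 percent of the 35 genes were called, beside 18.7 percent of all genes. The 1 higher gene was cwo, at 71.7 ± 12.9 against 14.0 ± 5.37 CPM, and 2 were lower, Fur1 at 241 ± 145 against 1543 ± 56.2 and shams at 11.8 ± 1.46 against 31.9 ± 5.58. In C3 against C2, with 11.4 percent called beside 7.88 percent of all genes, cwo was higher (108 ± 16.6 against 38.2 ± 12.7 CPM) and O-fut2, mam and Nedd4 were lower (0.825 against 6.49, 33.8 against 93.1 and 171 against 383 CPM). In Lawf1 against Lawf2, with 17.1 percent called beside 25.8 percent of all genes, kuz (403 against 88.1 CPM), Fur1 (78.2 against 26.0), lqf (315 against 88.6) and Nedd4 (595 against 179) were higher and aux (140 against 363) and Su(dx) (81.8 against 202) lower.

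In Tm5ab against Tm5c, with 11.4 percent called beside 10.1 percent of all genes, nct (64.3 against 135 CPM), mam (75.4 against 212), Nedd4 (102 against 287) and cwo (40.6 against 110) were lower and none was higher. In T2 against T3, 12 were higher and 5 lower, 48.6 percent called, close to the 47.8 percent of all genes. These calls are given without the exon length trend of T2 taken out. The largest in size were mib1 (2.51 against 58.7 CPM), mam (686 against 44.3), aph-1 (2.69 against 26.4) and Tace (26.8 against 298). O-fut2 had no read in T2, which allows up to 0.470 CPM there, and 6.75 ± 0.431 CPM in T3. The other genes called were higher for kuz, pen-2, lqf, shams, nej, Nak, AP-2alpha, Su(dx), Nedd4, krz and cwo and lower for O-fut1.

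The genes most like each member were sought among 5667 genes with a mean of at least 20 CPM in a type and a range of at least 2 on the log2(CPM + 1) scale, by Pearson r over the 17 type means. Septin1 was most like Hey (r = 0.93), followed by CycY and FBXO11 (0.90 each), and all 3 were highest in C2. H was most like lncRNA:CR44662 (0.94), Spt20 (0.94) and asRNA:CR44960 (0.93), all highest in Lawf2. Su(H) was most like Arc2 (0.89), tow (0.84) and ana2 (0.84), all highest in Lawf1.

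numb was most like Drak (0.85), Cda5 (0.81) and CanB (0.80), all highest in T2. neur was most like CG14052 (0.89), CG17777 (0.88) and GluRIIC (0.86), all highest in C2, and by Spearman's rho these stood at 0.53, 0.625 and 0.57. For the low genes, N was most like CG7650 (0.88), Tsen54 (0.85) and sina (0.83), Dl most like Rdh1 (0.82), apt (0.79) and Lmx1a (0.79), Ser most like asRNA:CR45467 (0.94), CG14142 (0.92) and MKP-4 (0.90), and fng most like boil (0.75), Actbeta (0.73) and Src64B (0.71). The Dl neighbours were highest in Dm12 and the N and Ser neighbours in T2. By Spearman's rho, the Dl neighbours stood at 0.682 for Rdh1, 0.418 for apt and 0.205 for Lmx1a, the last 2 far below their r. For the Ser neighbours rho was 0.811, 0.683 and 0.660. Without T2, their r was 0.885, 0.850 and 0.781, at ranks 11, 34 and 128. The fng neighbours then ranked 9, 6 and 24, and the fng order of types was not resolved.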

How the data were processed

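Reads were handled by the authors with Trimmomatic 0.32, STAR 2.5.2 and HTSeq 0.6.1 on genome build BDGP6, per the submitters' processing notes. The deposited tables hold whole-number counts of reads, not normalized, for each gene, and the strand setting of the counting and the annotation release were not given in the sources used here. Lines of the table that name no gene were left out, of which reads in no feature were 40.5 to 49.2 percent of a library's total. Counts were filtered (filterByExpr, 12569 genes), TMM-scaled and fitted in edgeR 4.0.16 (R 4.3.3) with 1 coefficient per group, robust quasi-likelihood and trended dispersion. DESeq2 1.42.0, RLE factors, no filter, a replicate block, T2 left out and 57 fits without 1 library were alternatives. Coordinates and exon lengths came from Ensembl release 115 (BDGP6). Members and lists were chosen with earlier results of these data known. Genes were named as all 9 members, the 3 genes most like each, up to 4 genes of largest range per list and list genes called in a comparison of 2 groups. Within groups, no 2 libraries were alike within counting error (chi-square over its degrees of freedom, 11.6 to 270.1). Psn was not matched and not analysed here. The test was checked on simulated counts of Mi1 against the other 16 types, with changes set only in well-read genes. That check did not cover changes at low counts or in T2. Levels of 0 and their limits cover counting error only.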

Additional observations from a re-analysis of the deposited data

How the results depend on the processing

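Members varied among types under every alternative run except for fng in DESeq2, which called 8 of 9. Against sorted neurons, DESeq2 called 1373 genes lower in place of 2068, and refits without single libraries gave 2 to 5 members and 436 to 798 genes higher. The lowest of these, 471, 436 and 502 genes, were without sorted neuron libraries 1, 2 and 3, and the 2 members were without library 2. Unscaled CPM moved Su(H) in Lawf1 to 71.0 and, in T2, numb to 67.2, N to 6.29 (10.3 with scaling) and Ser to 7.89 (11.4 with scaling). Spearman's rho moved Ser with asRNA:CR45467 to 0.81 and neur with CG14052 to 0.53, and among the other neighbours the largest moves were those of Dl with Lmx1a (0.205) and apt (0.418). Single changes turned sign for N and numb in T2 against T3 with the length trend out (-0.097 and -0.0158) and for Ser in the mixture against T1 with RLE factors (-0.00786). Without single libraries, log2 fold changes spanned zero for Dl in Lawf1 (-0.0438 to 3.72), Ser against sorted neurons (-1.41 to 0.29) and in the mixture against T1 (-3.80 to 0.79), fng in Dm2 (-0.48 to 2.97), T2 (-3.73 to 4.09) and Tm9 (-1.60 to 3.14), and Su(H) in the mixture against T1 (-0.24 to 0.0390). The cause was not tested. Libraries of the same number in different groups had a median r of 0.00124 over 513 pairs (-0.522 to 0.602, 10.9 percent over 0.1). The median was -0.00147 for pairs of different numbers. No pairing by number was seen over all groups, but a median cannot exclude it in some of them. The replicate block kept 9 members varying, 4 called against sorted neurons and 11 in the pairs, and gave 32 higher and 18 lower in single types.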
